A study of Mus musculus with 5 samples.

Results

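The Cd8a and Cd8b1 locus of double positive (DP) thymocytes was described from every region of the DNaseI, HEB and TCF1 lists that overlapped mm9 chromosome 6 from 71200001 to 71400000. The window held 73 of the 56796 regions in the lists, made up of 53 of the 48320 DNaseI regions, 12 of the 4930 HEB regions and 8 of the 3546 TCF1 regions. Each list came from 1 sample of DP thymocytes of C57/BL6 mice aged 4 to 6 weeks, so no value had a biological replicate. DNaseI marked open chromatin in intact nuclei, and HEB and TCF1 were mapped by chromatin immunoprecipitation. The H3K9me3 and H3K27ac samples of the series were not analysed here.

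Cd8a and Cd8b1 encode the alpha and beta chains of CD8, the coreceptor that binds MHC class I molecules beside the T cell receptor. DP thymocytes carry CD8 together with CD4, and keep one of them when they mature into cytotoxic or helper cells. Expression of the gene pair is known to be controlled by a series of enhancers, first seen as clusters of DNase I hypersensitive sites, between and around the genes. HEB, encoded by Tcf12, is an E protein that binds E-box sequences (CANNTG). TCF1, encoded by Tcf7, is an HMG-box factor that binds sequences such as CTTTGA and CTTTGT. Cd8b1 and Cd8a are neighbours in the RefSeq gene order of GRCm38.p6, with Gm1070 before Cd8b1 and Rmnd5a after Cd8a. That table is of another build than the regions, so no region was assigned to a gene, a promoter or a named enhancer.

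The Cd8a promoter is shown because it is the sequence of the locus in which both binding motifs could be searched. It is given as the 250 bases before the transcription start, from RefSeq on GRCm38.p6 at chr6:71373177-71373426, plus strand. These coordinates cannot be set beside the mm9 positions used elsewhere. Capitals mark matches to the E-box CANNTG, which reads the same on both strands.
Cd8a: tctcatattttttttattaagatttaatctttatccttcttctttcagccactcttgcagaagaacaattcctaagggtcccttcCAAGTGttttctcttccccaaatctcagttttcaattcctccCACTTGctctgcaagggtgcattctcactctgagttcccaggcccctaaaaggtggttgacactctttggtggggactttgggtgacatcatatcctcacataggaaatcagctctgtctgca
The E-boxes began at positions -165 (CAAGTG) and -123 (CACTTG), counted from -1 at the base before the start, and each is the reverse complement of the other. At least 1 E-box was found in 66.2% of 32851 promoter windows of this length, and 2 or more in 31.8%. CAAGTG or CACTTG was found in 11.6%. No match to CTTTGA or CTTTGT was found on either strand, sequences that 27.6% of windows held on at least 1 strand. The motifs searched did not overlap each other here. Whether a DNaseI, HEB or TCF1 region covered this sequence was not determined. The promoter of Cd8b1 had no entry in the table.

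Open chromatin and both factors were dense in the locus. DNaseI regions covered 38912 bp of the 200 kb, or 19.5%, against 0.845% of the span of all chromosomes. Among 13203 windows of 200 kb on a fixed grid, the locus had rank 2 for open DNA, after a window with 49.8 kb, and it shared rank 13 for the number of DNaseI regions (mean 3.67 per window). It held the most HEB regions of any window on this grid, 12 against at most 9 in another. Its 8 TCF1 regions gave rank 4, where the highest window held 12. HEB and TCF1 regions together came to 20, against at most 15 in another window and a mean of 0.643. On a grid moved by 100 kb, chosen after seeing the data, the locus fell into windows of 11 and 9 factor regions, and another window held 21. The locus was already known as rich in factor regions when it was chosen, so these ranks are a description.

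**Figure D1:**
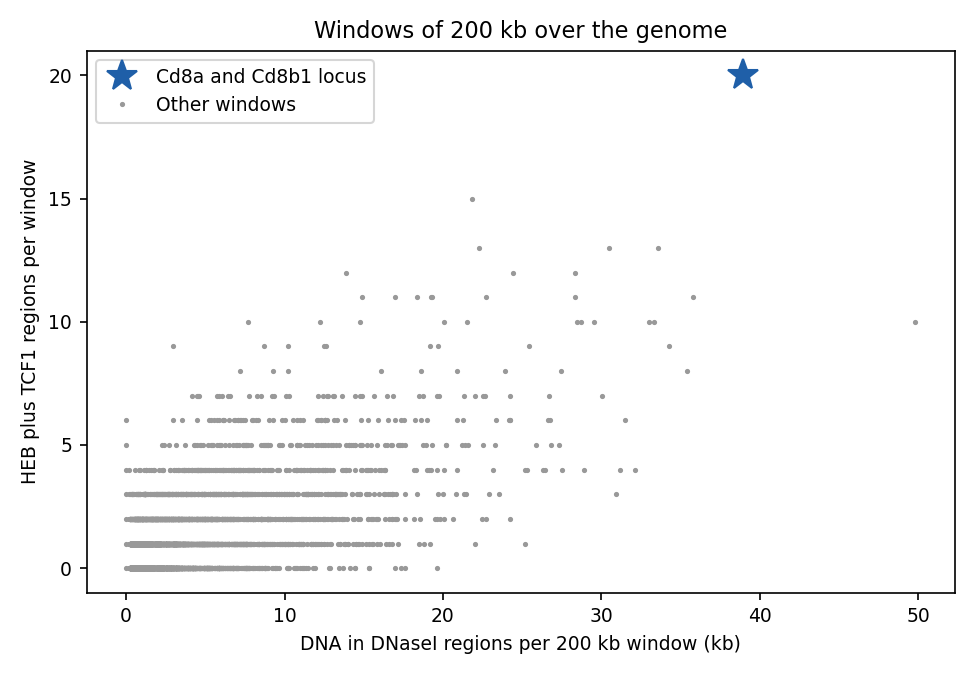
HEB plus TCF1 regions (vertical axis, number) against DNA in DNaseI regions (horizontal axis, kb) for the 13203 windows of 200 kb, where windows of equal values drawn as 1 point. The Cd8a and Cd8b1 locus, the star, had 20 factor regions and 38.9 kb of open DNA, and no other window on this grid exceeded 15 factor regions.

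Both sides of the locus held fewer regions than the locus itself. The 200 kb before the locus held 10 DNaseI regions, 1 HEB region and no TCF1 region, and the 200 kb after it held 8, 0 and 1. Both sides were still above the mean window of the grid, with 3.67 DNaseI regions and 0.643 factor regions. The first DNaseI region inside the window began 129120 bp after the end of the last one before it. The last DNaseI region of the window, from 71390734 to 71391228, was followed by 51019 bp without another. The nearest HEB regions outside lay 191.6 kb before and 307.3 kb after the window, and the nearest TCF1 regions 387.1 kb before and 183.1 kb after it. All 20 factor regions of the window fell within 93.9 kb, from 71252409 to 71346322. The members thus formed a bounded stretch, with no factor region near either edge of the window.

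Across the whole window, most open regions followed each other closely. The median gap between neighbouring DNaseI regions was 841 bp (range 217 to 29179 bp over 52 gaps), against 5843 bp over the whole list. Gaps of up to 1 kb made up 61.5% of gaps in the locus and 23.6% of all gaps. Joined across gaps of at most 5 kb, the 53 regions formed 5 groups. The first ran from 71246028 to 71314025 and held 35 DNaseI, 8 HEB and 6 TCF1 regions. The second ran from 71319202 to 71337791 and held 11 DNaseI regions, 3 HEB regions and 1 TCF1 region. The third, from 71343205 to 71348279, held 4 DNaseI regions with 1 region of each factor. The last groups held 1 and 2 DNaseI regions and no factor.

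The number of groups depended on the gap allowed, with 14 at 2 kb and 3 at 10 kb. At 10 kb, 50 of the 53 DNaseI regions and all 20 factor regions joined into 1 group of 102.3 kb, rank 3 of 19727 such groups in the whole list by open DNA (37790 bp). By number of DNaseI regions that group had rank 6, and by length rank 16. At 2 kb the group with the most open DNA ran from 71271013 to 71293186. Its 14 DNaseI regions covered 71.9% of its length, and it had rank 2 of 31896 groups by open DNA (15942 bp). By number of DNaseI regions it had rank 13, and by length rank 10. This group carried 3 HEB and 3 TCF1 regions.

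**Figure D2:**
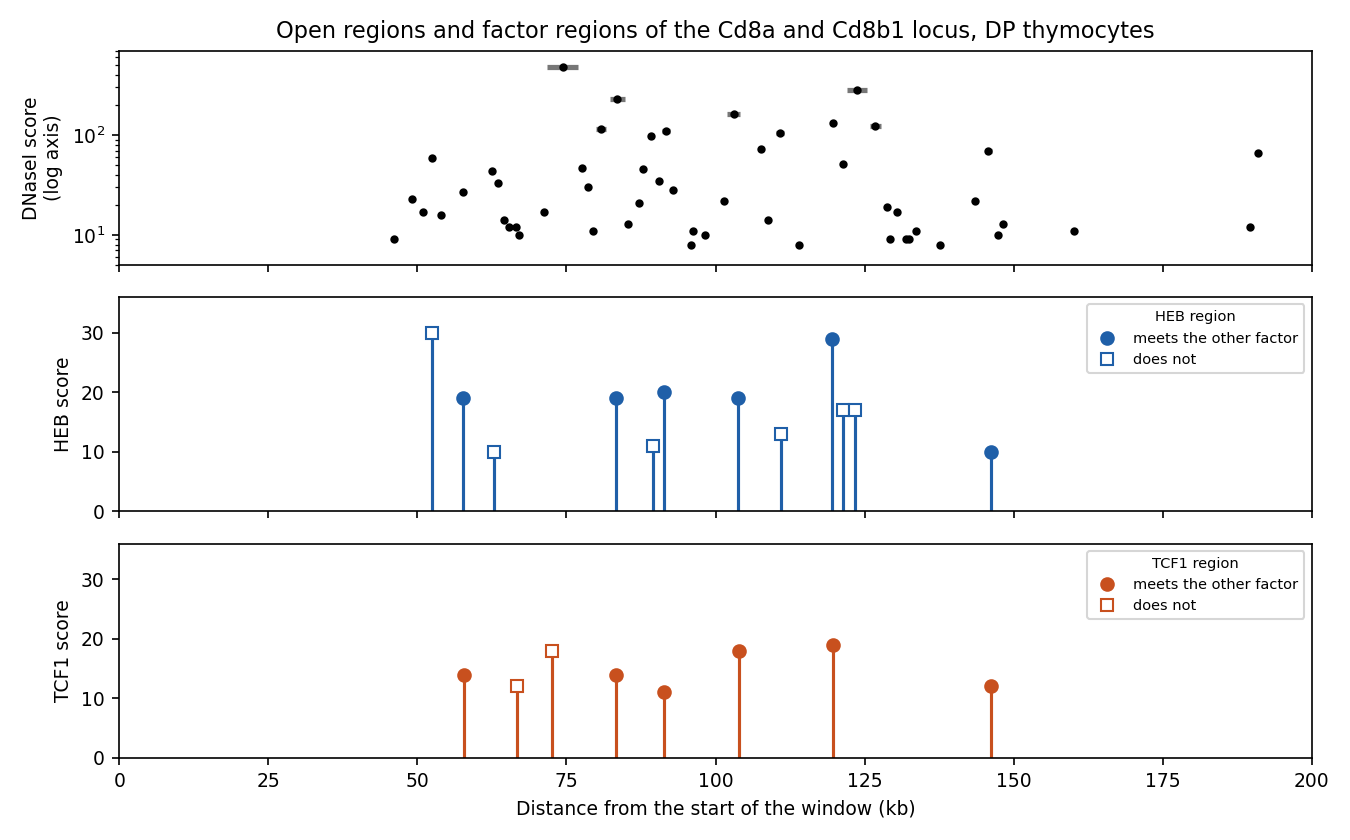
Score of each region (vertical axes, no stated unit, logarithmic for DNaseI) against distance from the start of the window (horizontal axis, kb), with DNaseI regions as a dot and a line of their width and factor regions as stems. Filled circles are factor regions that meet the other factor. The centres of the factor regions lie between 52.5 and 146.2 kb, and each of them overlaps a DNaseI region.

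Every factor region of the locus met open chromatin, 1 TCF1 region by only 6 bp. All 12 HEB regions met a DNaseI region by at least 1 bp (95% Clopper-Pearson interval 73.5 to 100%), whereas 34.5% of all HEB regions did. All 8 TCF1 regions did so too (63.1 to 100%), against 84.9% of all TCF1 regions, a share inside the interval. These intervals cover counting error only, and regions of 1 locus are not independent, so no test was made. HEB regions of higher score lay in open chromatin more often in the whole list, and the locus held high-scoring ones. All 8 locus regions with HEB scores of 17 or more met a DNaseI region (63.1 to 100%), against 65.3% of 981 such regions in the list. That share lies within the interval. All 4 with scores of 9 to 16 did so too (39.8 to 100%), against 26.8% of 3949, a share below the interval. The part of the score in the locus share was not tested.

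Both factors shared 6 positions in the locus. Of the 12 HEB regions, 6 overlapped a TCF1 region, or 50.0% (21.1 to 78.9%), against 11.7% of all HEB regions. Of the 8 TCF1 regions, 6 overlapped a HEB region, or 75% (34.9 to 96.8%), against 16.3% of all TCF1 regions. Counting only factor regions in open chromatin, the shares over the whole lists were 31.6% for HEB and 17.9% for TCF1. The first of these lies within the interval of the locus and the second below it. Under a stricter rule, with 50% or more of the shorter region covered, 3 pairs were left in the locus and 485 in the whole lists. That was 25% (5.49 to 57.2%) of the HEB regions of the locus, against 9.84% of all HEB regions, and 37.5% (8.52 to 75.5%) of its TCF1 regions, against 13.7% of all. Both intervals include the share of the whole list.

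**Figure D3:**
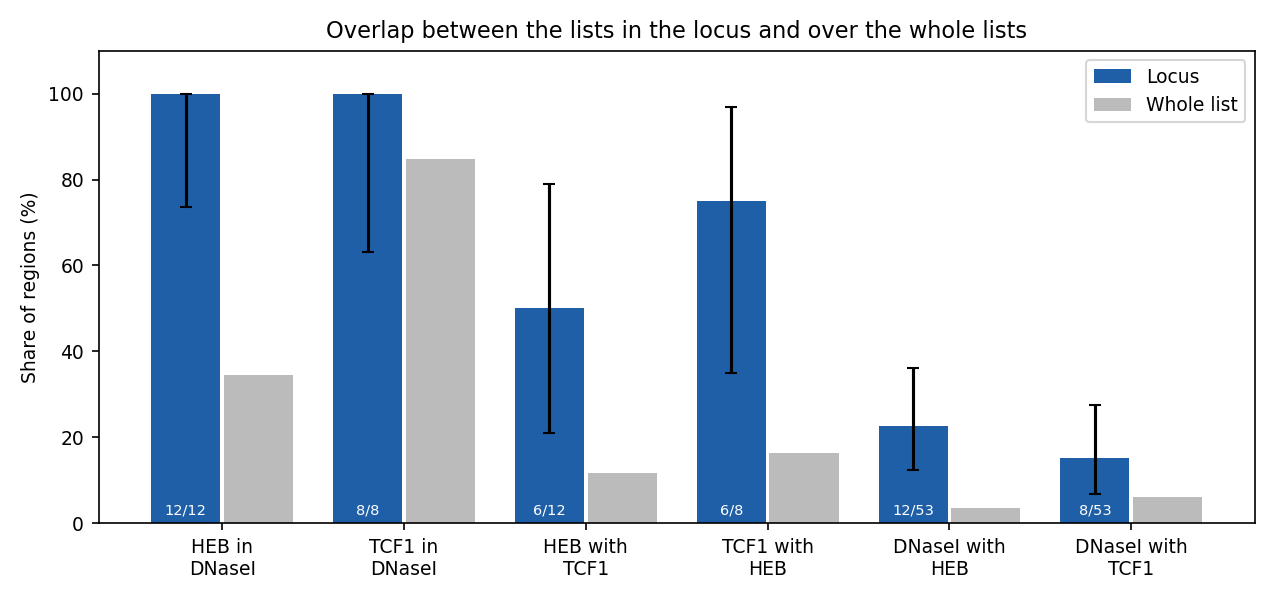
Share of regions (vertical axis, %) in the locus (blue, with 95% Clopper-Pearson intervals and counts) and in the whole list (grey) for 6 kinds of overlap. HEB regions in DNaseI regions were at 100% in the locus and 34.5% in the whole list, and the TCF1 interval reaches below the 84.9% of the whole list.

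The 6 shared sites were spread over 5 of the 14 groups formed at 2 kb gaps and all 3 groups with a factor formed at 5 kb. The first, with HEB from 71257561 to 71257761 (score 19) and TCF1 from 71257673 to 71257855 (score 14), lay in a narrow DNaseI region of 371 bp and score 27. The second had HEB from 71283179 to 71283379 (score 19) and TCF1 from 71283210 to 71283392 (score 14). Its DNaseI region was 2504 bp wide with a score of 229. Apart from the narrow first one, the open regions with shared sites were 839 to 2504 bp wide.

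The third shared site had HEB from 71291217 to 71291417 (score 20) and TCF1 from 71291344 to 71291526 (score 11), in a DNaseI region of 1238 bp and score 111. The fourth had HEB from 71303749 to 71303949 (score 19) and TCF1 from 71303764 to 71303946 (score 18), in 2154 bp of score 162. At this site the 183 bp of the TCF1 region lay wholly inside the HEB region, with centres 6 bp apart. The fifth combined the highest TCF1 score of the locus, 19 (71319585 to 71319767), with its second highest HEB score, 29 (71319441 to 71319641). Its DNaseI region was only 839 bp wide yet scored 133, at percentile 99.7 among regions of its width decile. The sixth, near the far end of the stretch, had HEB from 71346122 to 71346322 (score 10) and TCF1 from 71346081 to 71346263 (score 12), in 1151 bp of score 70.

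Centres of the paired regions were 6 to 135 bp apart, with a median of 76.5 bp, against 43 bp over the 578 pairs of the whole lists. TCF1 lay at the higher coordinate in 5 of the 6 pairs, against 51.7% of all pairs. With only 6 pairs and no strand in the lists, this difference was not tested. A HEB centre of the locus had its nearest TCF1 centre at a median of 884.5 bp (range 6 to 7110 bp), against 9290 bp for the 1701 HEB regions in open chromatin of the whole list. Among regions scoring above the median of their list, the locus value was 1634 bp. Over all regions of the locus, HEB regions without an overlapping TCF1 region had one within 7110 bp in every case. The locus held 8 TCF1 regions, against a mean of 0.269 per window, and closeness beyond this density was not tested.

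**Figure D4:**
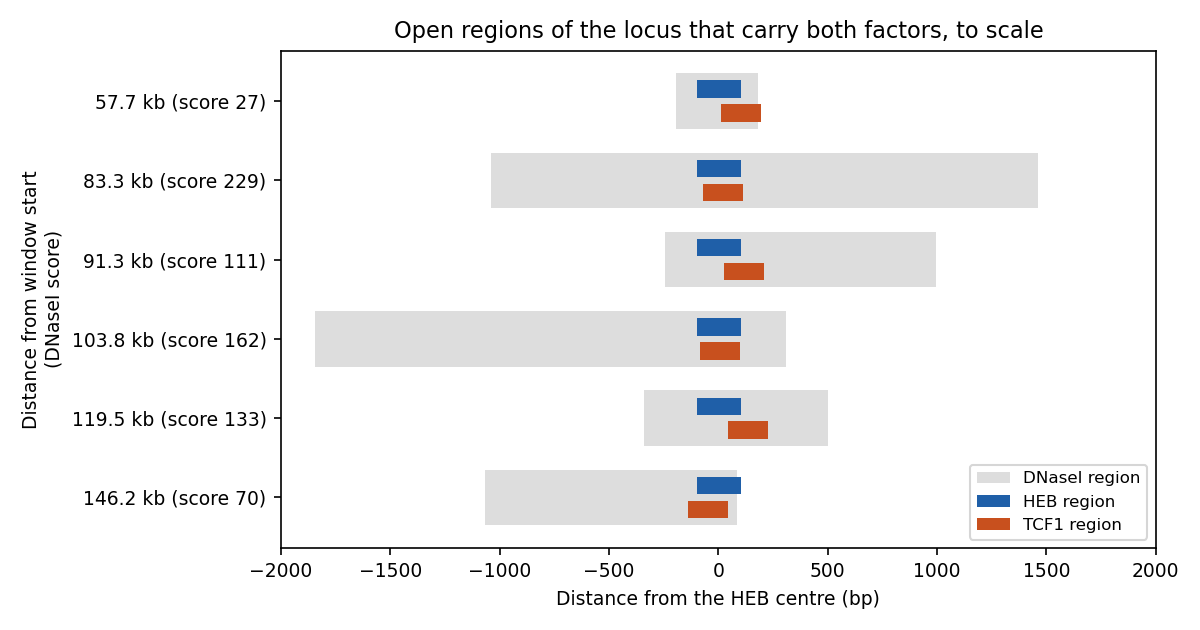
The 6 open regions with both factors, drawn to scale around the HEB centre (horizontal axis, bp), with the distance from the start of the window and the DNaseI score at the left. HEB (201 bp) and TCF1 (183 bp) regions overlap by 57 to 183 bp, and TCF1 lies to the right in 5 of 6.

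The other 6 HEB regions had a DNaseI region without TCF1. The highest HEB score of the locus, 30, belonged to the region from 71252409 to 71252609, in a DNaseI region of 941 bp and score 59 that was the first of the stretch to carry a factor. Regions from 71321210 to 71321410 and from 71323310 to 71323510 each scored 17. They lay in adjacent DNaseI regions, of 628 bp (score 51) and 3459 bp (score 283). The DNaseI region of 3459 bp, from 71322017 to 71325475, was the widest of the 1039 in the whole list that carried HEB without TCF1, with rank 4 among them by score. Lower HEB scores were found from 71310865 to 71311065 (13), from 71289453 to 71289653 (11) and from 71262793 to 71262993 (10). Their DNaseI regions scored 105, 97 and 44.

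Only 2 TCF1 regions had no HEB, and they lay in very different open regions. TCF1 from 71272507 to 71272689 (score 18) sat in the widest DNaseI region of the locus, from 71271747 to 71276970. With 5224 bp and a score of 483 that region had rank 4 by width and rank 7 by score of all 48320 DNaseI regions. It was the widest of the 2328 that carried TCF1 without HEB. The TCF1 centre lay 851 bp from its start, at 16.3% of its length. The other TCF1 region, from 71266618 to 71266800 (score 12), met a DNaseI region of 255 bp and score 12 by only 6 bp. Its centre lay 86 bp outside that region, and it was the single factor region of the locus that no longer met a DNaseI region under the stricter rule of 50% overlap. For the other 19 factor regions the centre was inside the DNaseI region, as for 95.8% of HEB and 93.7% of TCF1 regions in open chromatin over the whole lists.

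In the factor lists, most locus members scored above the middle, and none reached the top. Scores above the median of the list were found for 9 of the 12 HEB regions and 7 of the 8 TCF1 regions. HEB scores had a median of 18 (range 10 to 30), against 11 over the whole list, whose highest was 99. The median locus HEB region stood at percentile 84.1 of its list. TCF1 scores had a median of 14 (range 11 to 19), against 11 over the whole list, whose highest was 60, and the median stood at percentile 75.5. The highest HEB score of the locus, 30, had rank 209 of 4930, and the highest TCF1 score, 19, had rank 336 of 3546. The locus thus held many factor regions of middling to high score and none of the highest. HEB regions of the locus that met TCF1 had scores of 10, 19, 19, 19, 20 and 29, and those that did not had 10, 11, 13, 17, 17 and 30. Their medians were 19 and 15, against 16 and 11 for the same groups over the whole list. The ranges of the locus groups overlapped almost wholly, and the difference was not tested.

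Seen from the open regions, 14 of 53 carried a factor, and 39, or 73.6% (59.7 to 84.7%), carried neither, against 91.8% of the whole list. HEB was carried by 12, or 22.6% (12.3 to 36.2%), against 3.43%. TCF1 was carried by 8, or 15.1% (6.75 to 27.6%), against 6.1%. Both factors were carried by 6, or 11.3% (4.27 to 23.0%), against 1.28%. HEB without TCF1 was found on 6 (11.3%, against 2.15%) and TCF1 without HEB on 2 (3.77%, against 4.82%). More open regions carried HEB than TCF1 in the locus and fewer did in the whole list, a difference in order that was not tested. The sites that carried a factor were spaced by a median of 5.89 kb (range 1.70 to 22.8 kb).

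The open regions of the locus included many of high score, and these differences were also read within bins of score chosen after seeing the data. DNaseI scores had a median of 21 in the locus and 16 in the whole list, but 9 of 53, or 17%, reached 100, against 3.14% of all. Of these 9 regions, 6 carried HEB, or 66.7% (29.9 to 92.5%), against 26.5% of 1516 such regions. TCF1 was carried by 5, or 55.6% (21.2 to 86.3%), against 43.2%, which lies within the interval. At scores of 50 to 99, 4 of 6 carried HEB (22.3 to 95.7%), against 10.6%, and 1 of 6 carried TCF1, against 20.5%. At scores of 20 to 49, HEB was on 2 of 12 and TCF1 on 1 of 12, against 3.62% and 6.35%. At scores of 8 to 19, 0 of 26 carried HEB, which allows a share of up to 13.2% by the same interval, and 1 of 26 carried TCF1, against 0.81% and 1.39%. The intervals for HEB lay above the share of the whole list at scores of 50 to 99 and of 100 or more, and those for TCF1 included it in all 4 bins. They cover counting error only and treat regions of 1 locus as independent, which they are not, so these differences were not tested.

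Within the locus, open regions with a factor were wider and scored higher than those with neither. Median DNaseI scores were 101 for the 14 with a factor (range 12 to 483) and 14 for the 39 with neither (range 8 to 122). Over the whole list these medians were 52 and 15. Median widths were 1091 bp and 316 bp in the locus, and 725 bp and 306 bp in the whole list. Wider regions scored higher, as the plot of width and score shows, so scores were also placed among regions of the same width decile. There the locus regions with a factor had a median percentile of 76.8 and those with neither 43.2, against 70.5 and 45.3 in the whole list.

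**Figure D5:**
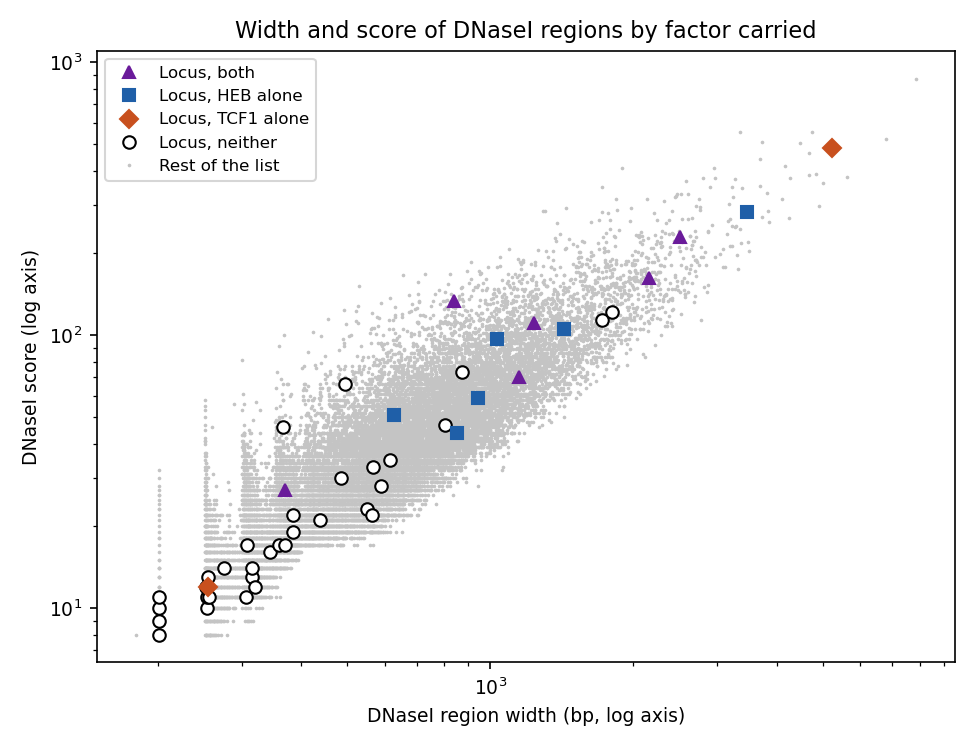
DNaseI score (vertical axis, no stated unit) against region width (horizontal axis, bp), both on log axes, for the locus by factor carried and for the rest of the list in grey. The widest locus regions, of 5224 and 3459 bp, carried TCF1 alone and HEB alone, and most locus regions without a factor are narrow and low in score.

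Open regions without a factor were not all weak. Among them the region from 71325921 to 71327723, next to the widest one with HEB alone, had the highest score, 122, and a width of 1803 bp. The region from 71279984 to 71281699 scored 114 over 1716 bp and lay between the widest region of the locus and the second shared site. The third, from 71307261 to 71308132, scored 73 over 872 bp. The other 36 had scores of 8 to 66. Of all 53 open regions of the locus, 10 had a width of exactly 201 bp, or 18.9%, against 26.4% of the whole list.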

How the data were processed

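The authors deposited each list as mm9 regions with a whole-number score. What this deposited score counts is not stated, so it was ranked only within its own list. Tied regions share the best rank of their tie, and percentiles place them at its middle. The submitters' processing notes name HOMER 6.1 without its role. Aligner, caller settings, control libraries and read totals are likewise not stated in the sources used here. Depth is therefore unknown, and a region missing from a list has no detection limit. Every HEB region spanned 201 bp and every TCF1 region 183 bp. Positions count from 1.

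Regions met when they shared at least 1 bp. Shares carry exact 95% Clopper-Pearson intervals. No test was possible with 1 sample per assay. Every factor region, every open region with a factor and the 3 highest-scoring open regions without one are named by rule. The window, lists and rules were chosen with earlier results of these data known. Cell type markers could not be checked, since the lists hold no expression values and were not joined to genes. The overlap computation was tested on simulated data. Overlap, score, window and gap rules were varied. Python 3.11.15, numpy 2.4.6, pandas 2.3.3, scipy 1.17.1 and matplotlib 3.10.9 were used.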

Additional observations from a re-analysis of the deposited data

How the results depend on the processing

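No paired analysis was possible because each assay had 1 sample, and for the same reason no replicate could be left out. The numbers of HEB and TCF1 regions stayed within 1.5 times the reported count under the window and score rules. The overlap shares stayed within the interval of the reported share under the overlap and score rules, and the median score percentiles within theirs over autosomes and, for DNaseI, within width deciles. These intervals were wide enough to hold large moves. With 50% of the shorter region covered, the HEB regions that met TCF1 fell from 50% to 25%. The TCF1 regions that met HEB fell from 75% to 37.5%. Outside the limit for counts was the number of DNaseI regions, 31 of 53 with scores above the median of their list. A cut at the median of a list removes many of its regions by design. The groups of open regions also moved, to 14 with gaps of at most 2 kb and 3 with gaps of at most 10 kb, against 5. The median distance from a HEB to the nearest TCF1 centre was 1634 bp with scores above each list's median, against 884.5 bp, within the interval of the median. Intervals from 8 to 12 regions are wide, so staying within them is a weak check. With scores above each list's median, 16 factor regions were left, and no other window on the same grid held more.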
